A study of Caenorhabditis elegans with 24 samples.

Results

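The pals genes of Caenorhabditis elegans were followed across 8 conditions, together with 4 genes of a cullin-RING ubiquitin ligase, cul-6, skr-3, skr-4 and skr-5. Genes were taken by name, every gene whose WormBase symbol is pals- followed by a number plus the 4 ligase genes, and this gave 43 of the 46934 genes of the count table, 39 pals genes and 4 ligase genes. RNA was sequenced from whole animals at day 1 of adulthood, about 800 animals per sample, grown at 20 °C on HT115 bacteria with the plasmid pL4440. There were 4 genotypes, each either untreated or given a heat-shock of 2 h at 34 °C and then 1 h at 20 °C, and 3 biological replicates of each condition, 24 libraries in all. N2 is the wild-type strain. The hsf-1FL animals over-express full-length hsf-1, the gene of the main heat-shock transcription factor, from the neuronal rab-3 promoter. In hsf-1CTD animals the same promoter drives an hsf-1 that lacks its C-terminus. The hsf-1(sy441) animals carry the mutant allele in every cell. As polyadenylated RNA of whole animals was read, changes in single tissues were averaged over the body.

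Proteins of the pals family share a domain of unknown biochemical function (ALS2CR12), and the family is much larger in C. elegans than in mammals. Several pals genes are known as part of the intracellular pathogen response, a program that worms switch on in the intestine and epidermis upon infection by microsporidia or the Orsay virus and also upon long mild heat or proteasome blockade. In that program pals-22 and pals-17 act as brakes and pals-25, pals-16 and pals-20 as activators, and CUL-6 works with Skp1-related adaptors (SKR-3, SKR-4 and SKR-5) and the RING protein RCS-1 in a ubiquitin ligase that is linked to survival of heat stress in animals without pals-22.

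Libraries held between 11215696 and 19794446 counts, so that 3 counts, taken as the floor, were worth 0.143 to 0.260 counts per 1000000 (CPM, scaled with the TMM factor of each library). Of 9 heat-shock genes listed, the 5 with enough counts to test rose in each of the 4 genotypes, so the labels of treatment held in every group. These were hsp-16.2, hsp-16.41, hsp-70, F44E5.4 and F44E5.5. The rest, hsp-16.1, hsp-16.11, hsp-16.48 and hsp-16.49, had at most 8 counts each over the 24 libraries and were not tested. In untreated animals hsf-1 itself was at 137 ± 13.3 CPM (SD, n = 3) in N2 and at 148 ± 4.67 CPM in hsf-1FL. It was at 153 ± 16.3 CPM in hsf-1CTD and at 74.7 ± 26.8 CPM in hsf-1(sy441), and these counts check neither the transgenes nor the allele, which truncates the protein. Sperm genes summed to over 400 CPM in 5 libraries (hsf-1FL replicate 1 with and without heat-shock, untreated hsf-1(sy441) replicates 2 and 3, heat-shocked hsf-1(sy441) replicate 3) and to between 6.96 and 25.1 CPM in N2 and hsf-1CTD. The calls below were therefore also made without those 5 libraries.

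The family as a whole was scarcely detected. Of the 39 pals genes, 37 had a count in some library, and the 39 together summed to 19.6 to 63.8 CPM per library. A gene was tested where it had at least 10 counts in at least 3 libraries, which 16 pals genes and the 4 ligase genes did. The other 23 pals genes held 777 counts in all over the 24 libraries. One of them is pals-5, whose promoter drives the reporter commonly used for the intracellular pathogen response. It had 4 counts over the 24 libraries, 3 in untreated and 1 in heat-shocked animals, and no library had more than 1. Another is pals-20, with 60 counts, of whose exon bases 502 (50.8%) are shared with Y82E9BR.5 on the other strand. The genes pals-10 and pals-12 were at 0 in every library. Of the exon bases of pals-12, 99.5% lie also in pals-3 on the same strand, so that a read there could not be given to 1 gene, and a count of 0 says little about pals-12.

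**Figure D1:**
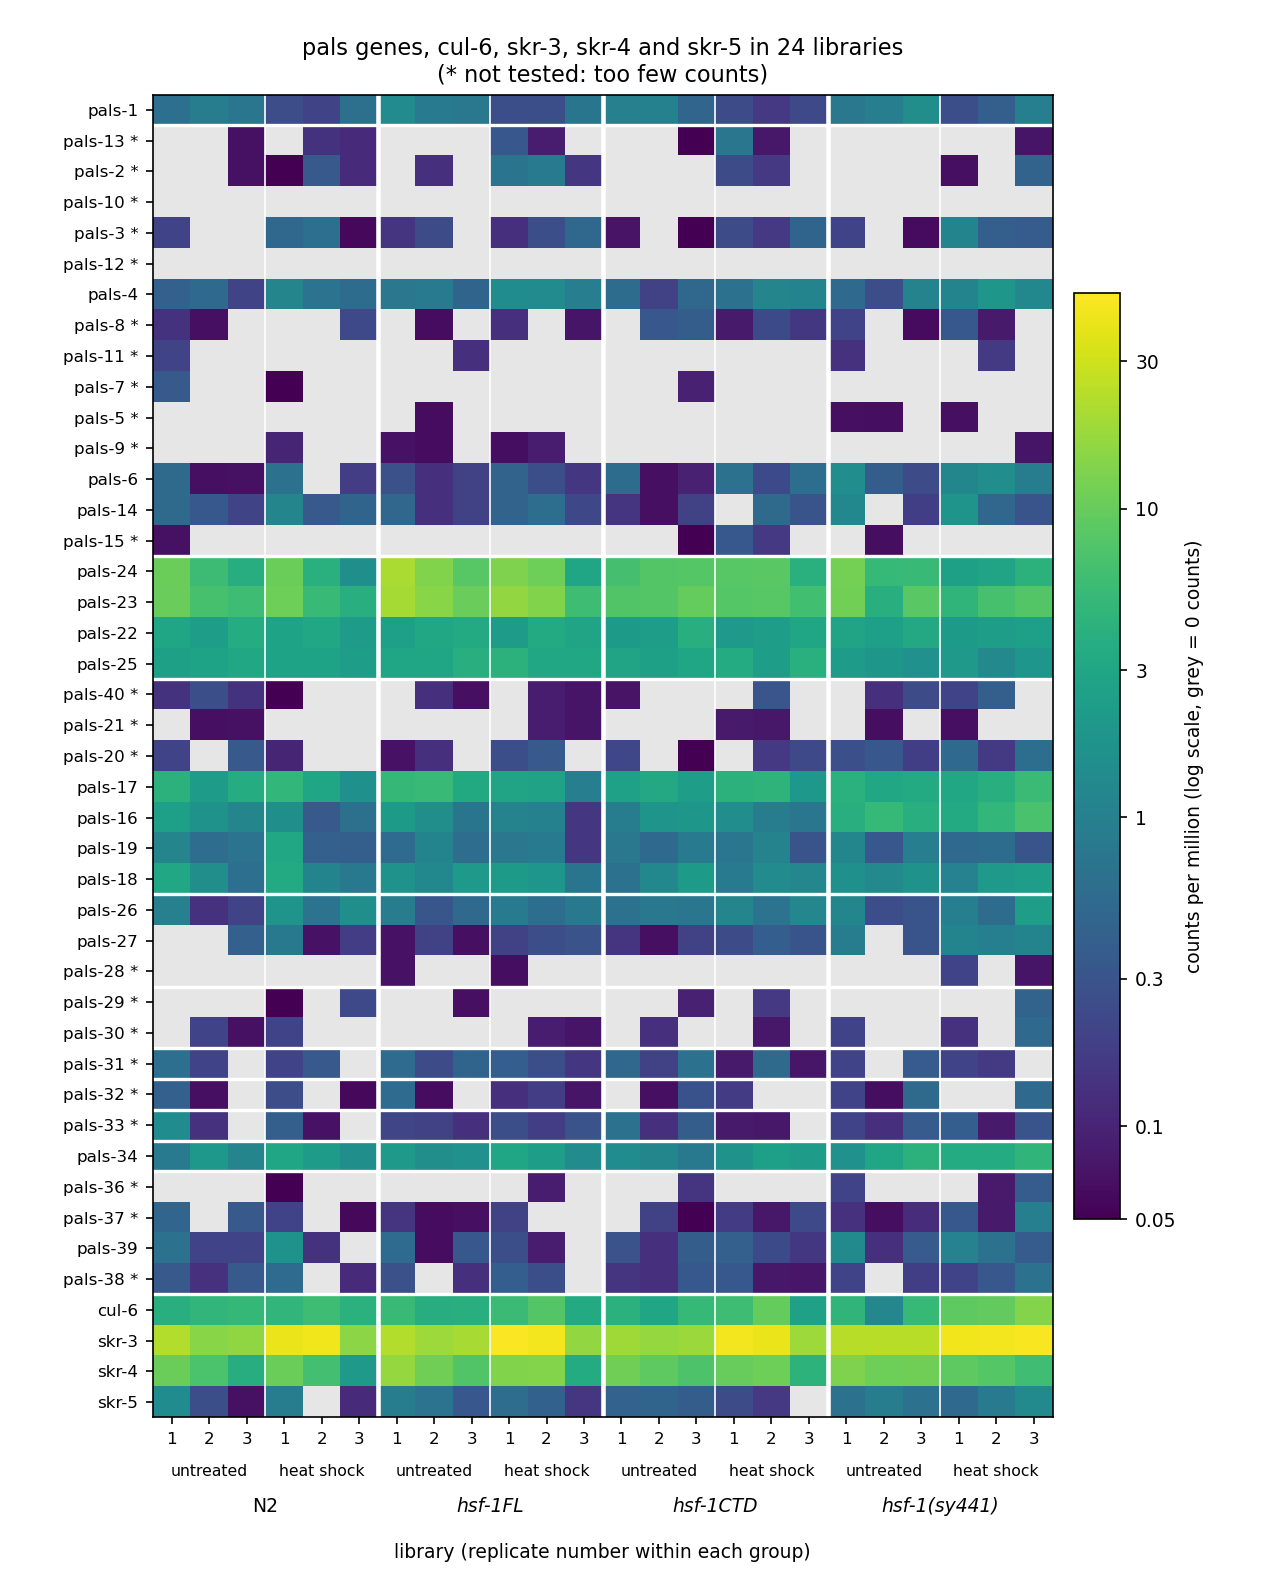
Level of all 43 genes (rows, in order of position within each gene cluster) in the 24 libraries (columns, by genotype, treatment and replicate) in CPM on a log colour scale, with grey for 0 counts and white lines between clusters and conditions. The 23 pals genes marked with a star had too few counts to be tested, and the brightest pals genes are pals-24 and pals-23.

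Most pals genes lie in clusters (WBcel235, neighbours within 50 kb), and the clusters differed in level. The largest, 14 genes on chromosome I between 13083321 and 13144623 that include pals-5, held 6.11% of all pals counts and summed to a median of 2.12 CPM per library, from 0.619 to 5.69 CPM, with 3 of the 14 tested (pals-4, pals-6 and pals-14). The 4 genes pals-24, pals-23, pals-22 and pals-25, on chromosome III between 120435 and 137975, held 57.6% of the pals counts and summed to between 9.96 and 45.8 CPM. A second cluster on chromosome III, 7 genes between 1376945 and 1406263 with pals-16, pals-17 and pals-20, held 21.4%. The single gene pals-34 on chromosome V (7955404 to 7956497) held 5.71%.

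Per length, the highest mean levels over the 24 libraries were those of skr-3 with 52.9 transcripts per 1000000 (TPM, which corrects for gene length) and skr-4 with 19.7 TPM. Then came pals-24 with 11.2 TPM, pals-23 with 8.97 TPM and pals-17 with 5.77 TPM. The regulators pals-22, pals-25 and pals-16 followed with 4.56, 3.81 and 2.81 TPM, and cul-6 had 3.50 TPM. The transcript of skr-5 stood lower, at 1.24 TPM.

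Summed, the 39 pals genes were at 34.2 ± 10.7 CPM before and 33.0 ± 17.9 CPM after heat-shock in N2 (SD, n = 3) and at a like level in hsf-1(sy441) (39.5 ± 10.8 and 39.9 ± 7.86 CPM). In hsf-1FL the sum was 50.1 ± 13.05 CPM before and 40.7 ± 15.9 CPM after, and in hsf-1CTD it was 33.8 ± 4.01 and 34.5 ± 4.87 CPM. The 4 ligase genes summed to 30.0 ± 7.48 CPM before and 44.5 ± 20.0 CPM after heat-shock in N2, where the groups overlapped. The ligase sum was 36.8 ± 7.17 and 52.6 ± 25.4 CPM in hsf-1FL and 31.2 ± 2.78 and 48.9 ± 20.6 CPM in hsf-1CTD, with overlap. In hsf-1(sy441) they went from 40.2 ± 2.75 to 63.8 ± 3.19 CPM without overlap. These sums were not tested.

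Upon heat-shock, none of the 20 tested genes passed an adjusted p of 0.01 in any single genotype (edgeR's quasi-likelihood test with Benjamini-Hochberg adjustment over 15256 genes). Few genes of the genome did, 0.669% of those tested in N2, 0.819% for hsf-1FL, 0.964% for hsf-1CTD and 1.72% for hsf-1(sy441). At an unadjusted p under 0.05 there were, in the same order, 2, 3, 4 and 3 of the 20, against 12.2%, 14.7%, 16.6% and 19.4% of the genes tested. DESeq2 called 0 of the 20 in each genotype at the same adjusted threshold, against 2.4%, 3.23%, 3.74% and 4.9% of the genes tested. With surrogate variables, the combination that the study's methods name, DESeq2 called skr-3 for hsf-1CTD and skr-3 and cul-6 for hsf-1(sy441) and 0 of the 20 for the other genotypes (7.07%, 7.25%, 9.98% and 13.8% of the genes tested, in the same order). The lowest adjusted p among the 20 were 0.296 (skr-3) in N2 and 0.258 (pals-17) in hsf-1FL, and 0.0949 (pals-1) in hsf-1CTD and 0.0575 (cul-6) in the mutant.

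With the response averaged over the 4 genotypes, 12 libraries against 12, 3 of the 20 passed. The genes skr-3 and pals-4 rose, 2 of the 20 beside 8.6% of all genes tested, and pals-1 fell, 1 of the 20 beside 7.76% of all, so the shares were near the background. At an adjusted p of 0.05 there were 5 of the 20 (with cul-6 and pals-34), beside 27% of all. The median log2 fold change of the 20 was -0.06, that of all genes tested 0.01. In whole animals, fewer cells of a type and less RNA per cell cannot be told apart, and this holds for every level given here.

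The Skp1-related adaptor skr-3 (WBGene00004809, chromosome V, 16121084 to 16122649) was the most abundant of the 43 and rose 1.86-fold on average. Its log2 fold change was 0.90 ± 0.19 (SE), with an adjusted p of 0.00122 in edgeR's quasi-likelihood test. In N2 the 3 untreated libraries were at 22.6, 14.6 and 15.9 CPM and the 3 heat-shocked at 41.1, 42.5 and 15.2 CPM. In hsf-1FL they were at 22.3, 18.02 and 20.1 CPM untreated and at 48.3, 44.4 and 16.24 CPM after heat-shock. The hsf-1CTD libraries gave 18.6, 16.6 and 17.6 CPM untreated and 44.2, 40.4 and 18.1 CPM heat-shocked. In these 3 genotypes replicates 1 and 2 lay above every untreated library and replicate 3 did not. In hsf-1(sy441) all 3 heat-shocked libraries, at 43.1, 43.9 and 46.3 CPM, lay above the untreated 24.1, 24.01 and 24.1 CPM. So skr-3 fell into 2 levels after heat-shock, 40.4 to 48.3 CPM in 9 libraries and 15.2 to 18.1 CPM, within the untreated range of 14.6 to 24.1 CPM, in replicate 3 of N2, hsf-1FL and hsf-1CTD.

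The call for skr-3 held when each single library was left out (adjusted p from 0.000161 to 0.00304). Without the 8 libraries numbered 3, skr-3 was called in N2, hsf-1FL and hsf-1CTD, with log2 fold changes of 1.18, 1.21 and 1.27. The adjusted p were 0.00741, 0.00415 and 0.00326 in edgeR's quasi-likelihood test. In hsf-1(sy441) the log2 fold change was then 0.85, with an adjusted p of 0.0179 in the same test, and was not called. This setting was chosen after the data were seen. It takes out the heat-shocked libraries in which skr-3 lay within the untreated range, so these calls are no independent support. Without the 8 numbered 1 or the 8 numbered 2, the mean response was 0.82 and 0.71 with adjusted p of 0.0431 and 0.155. Without the 5 libraries high in sperm genes it was 0.85 with an adjusted p of 0.0219, and none of the 20 then passed 0.01. With all libraries the log2 fold change was 0.90 for N2 and 0.89 for hsf-1(sy441), with hsf-1FL at 0.85 and hsf-1CTD at 0.96. For N2, hsf-1FL and hsf-1CTD this average takes in replicate 3, which lay within the untreated range. The difference of hsf-1(sy441) from N2, also with all libraries, was -0.01 with a 95% interval from -1.09 to 1.07.

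Among the 20 tested genes, 4 were lower in those 3 heat-shocked libraries than in each of the other 9 heat-shocked libraries, skr-3, skr-4, cul-6 and pals-17, against 8.24% of all genes tested. This pattern was looked for after the values of skr-3 had been seen. Only skr-3 of the 20 was lower by more than 2-fold, as were 0.629% of all genes tested. For skr-4, replicate 3 was also the lowest untreated library in N2, hsf-1FL and hsf-1CTD (3.72, 7.635 and 7.22 CPM). For pals-17 this was so in hsf-1FL and hsf-1CTD, and for skr-3 and cul-6 in none of these genotypes. The RING partner gene rcs-1, no member of the set and chosen after its values were seen, showed the pattern too, with 2.55 to 2.97 CPM in the 3 libraries, 6.59 to 22.5 CPM in the other 9 and 5.71 to 9.58 CPM untreated. In the same 3 libraries hsp-16.2 was at 404 to 475 CPM, against 673 to 882 CPM in the other 6 heat-shocked libraries of these genotypes. Other heat-shock genes did not all follow: hsp-70 was at 850 to 963 CPM, within the range of the other 6 (650 to 1513 CPM), and F44E5.4 was higher in the 3 libraries (41.4 to 51.0 CPM against 3.29 to 33.3 CPM). The gene hsf-1 was also higher there (155 to 165 CPM against 96.3 to 128 CPM). The summed level of 6 intestinal markers was 196.1 to 213 CPM there, 292 to 436 CPM in those other 6 and 504 to 967 CPM in untreated animals of these genotypes, with none of the markers at 0. In heat-shocked hsf-1(sy441), where skr-3 was high in all 3 libraries, it was 302, 322 and 603 CPM. In the mean heat response the 6 markers did not move alike, with log2 fold changes from -3.10 to -0.06. Of these markers act-5 and pept-1 were called lower, so the sum mixes unlike responses to heat. Their part in the level of skr-3 was not tested.

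**Figure D2:**
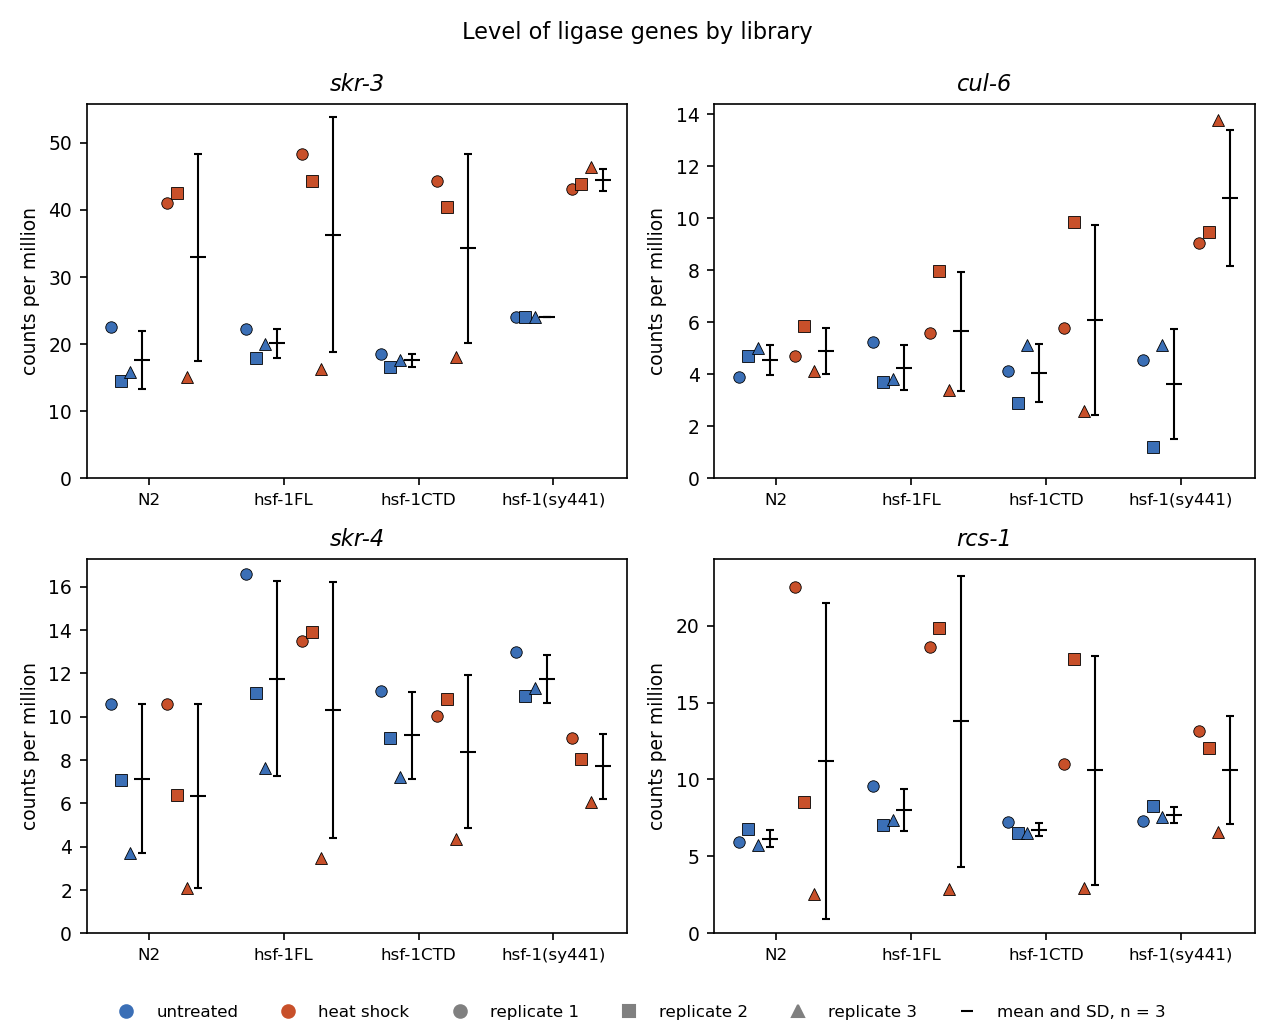
CPM (vertical axis, from 0) of skr-3, cul-6, skr-4 and rcs-1 in each library, untreated in blue and heat-shocked in red, with a marker shape for each replicate number and the mean with SD (n = 3) in black. The triangles of N2, hsf-1FL and hsf-1CTD after heat-shock (replicate 3) lie at 15.2 to 18.1 CPM for skr-3 while the other 9 heat-shocked libraries lie at 40.4 to 48.3 CPM.

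The cullin gene cul-6 (WBGene00000841, chromosome IV, 12586485 to 12590451) did not pass the threshold. In hsf-1(sy441) it was at 4.54, 1.22 and 5.14 CPM untreated and at 9.06, 9.46 and 13.8 CPM after heat-shock. These groups did not overlap, and the log2 fold change of 1.56 ± 0.47 had an adjusted p of 0.0575 in edgeR's quasi-likelihood test and 0.00456 in DESeq2 with surrogate variables. Without the 5 libraries high in sperm genes, which take 2 of these 3 untreated libraries and 1 heat-shocked, it was 1.01 with an adjusted p of 0.543. In N2 cul-6 was at 3.90, 4.71 and 5.02 CPM untreated and 4.71, 5.85 and 4.11 CPM heat-shocked, a log2 fold change of 0.10. The responses of hsf-1(sy441) and N2 differed by 1.46 on the log2 scale (95% interval 0.09 to 2.83) with an adjusted p of 1.00, so a difference in response was not shown. Over the 4 genotypes the log2 fold change of cul-6 was 0.67 ± 0.23, at an adjusted p of 0.0388.

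Neither of the other adaptors passed the threshold. In N2 skr-4 (chromosome V, 19924224 to 19925033) was at 10.6, 7.09 and 3.72 CPM untreated and 10.6, 6.41 and 2.09 CPM heat-shocked. Over the genotypes its log2 fold change was -0.27 ± 0.26. In hsf-1(sy441) its groups did not overlap, from 13.01, 10.9 and 11.3 CPM to 8.999, 8.07 and 6.06 CPM, a log2 fold change of -0.61 at an adjusted p of 0.61. The levels of skr-5 were between 0 and 1.44 CPM, and its log2 fold change over the genotypes was -0.69 ± 0.51. Of 17 other Skp1-related genes tested, 0 rose and 1 fell in the mean response, skr-11, with a log2 fold change of -1.03, beside 8.6% of all genes tested that rose and 7.76% that fell. None of the 5 other cullin genes passed, and their log2 fold changes lay between -0.20 and 0.05.

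The gene pals-4 (WBGene00007658, chromosome I, 13113487 to 13116434), of the cluster with pals-5 and of no role known to be its own, rose 2.099-fold over the genotypes, from a mean of 0.536 to 1.13 CPM. In N2 the values were 0.411, 0.530 and 0.206 CPM untreated and 1.16, 0.696 and 0.579 CPM heat-shocked. In hsf-1FL they were 0.769, 0.882 and 0.461 CPM and then 1.43, 1.38 and 0.964 CPM. All 6 heat-shocked values of these 2 strains lay above the untreated values of the same strain. The hsf-1CTD libraries went from 0.578, 0.197 and 0.523 CPM to 0.663, 1.17 and 1.14 CPM, and the hsf-1(sy441) libraries from 0.534, 0.257 and 1.09 CPM to 1.12, 1.96 and 1.27 CPM. In each genotype every heat-shocked library was above every untreated one, the only one of the 20 tested genes of which this was true, beside 2.28% of all genes tested, a pattern looked for after the values were seen. Its highest count in any library was 24, and 2 of the 12 untreated libraries held 3 counts. Before scaling, the counts overlapped in hsf-1FL (11, 14 and 7 untreated, 22, 16 and 13 heat-shocked). They also overlapped in hsf-1CTD (8, 3 and 11, then 8, 15 and 15) and in hsf-1(sy441) (8, 4 and 18, then 17, 24 and 17). In these genotypes the lack of overlap rests on the scaling of libraries and on few counts.

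The log2 fold change of pals-4 was 1.07 ± 0.27 with an adjusted p of 0.00634 in edgeR's quasi-likelihood test. That call was near the threshold: leaving out any 1 of 13 of the 24 libraries raised the adjusted p to between 0.0101 and 0.0145, with log2 fold changes between 0.98 and 1.09. Those libraries were N2 untreated 1 and 3 and heat-shocked 1, hsf-1FL untreated 1 and 3 and heat-shocked 1 and 2, hsf-1CTD untreated 2 and heat-shocked 2 and 3, and hsf-1(sy441) untreated 1 and 2 and heat-shocked 2. Without the 5 libraries high in sperm genes the log2 fold change was 1.14 with an adjusted p of 0.0166. Without the 8 libraries numbered 1, those numbered 2 or those numbered 3 it was 1.11, 0.925 and 1.23. The adjusted p were then 0.0601, 0.142 and 0.0126 in edgeR's quasi-likelihood test, so the call was lost each time.

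By contrast pals-1 (WBGene00008858, chromosome I, 11579856 to 11581989), which stands alone outside the clusters, fell 2.49-fold over the genotypes, from a mean of 0.932 to 0.387 CPM. Of the 12 heat-shocked libraries 5 held 3 counts or fewer, the floor, so the size of the fold is uncertain. In N2 it went from 0.616, 0.928 and 0.757 CPM to 0.253, 0.209 and 0.637 CPM. In hsf-1FL it went from 1.40, 0.882 and 0.790 CPM to 0.260, 0.260 and 0.741 CPM. In hsf-1CTD it went from 1.01, 1.05 and 0.475 CPM to 0.249, 0.156 and 0.229 CPM, and in hsf-1(sy441) from 0.8004, 0.965 and 1.51 CPM to 0.265, 0.408 and 0.973 CPM. Heat-shocked and untreated libraries did not overlap in either transgenic strain and overlapped in N2 and hsf-1(sy441). Replicate 3 was the highest of the heat-shocked libraries in N2, hsf-1FL and hsf-1(sy441). The log2 fold change was -1.31 ± 0.30 with an adjusted p of 0.00264 in edgeR's quasi-likelihood test, and between 0.000712 and 0.00662 when single libraries were left out. Without the 5 libraries high in sperm genes the adjusted p was 0.0124, with a log2 fold change of -1.23. Without the 8 libraries numbered 3 the log2 fold change was -1.87, with an adjusted p of 0.000651 in the same test. Without those numbered 1 or those numbered 2 it was -1.11 and -1.06, with adjusted p of 0.0593 and 0.179.

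Of the 23 pals genes not tested, 14 had a higher and 7 a lower mean CPM in heat-shocked than in untreated animals, and 2 were at 0 in both. By summed counts 13 were higher and 8 lower. In a fit without the filter on low counts the median log2 fold change of all genes was 0.11. The share among other genes this low was not computed, so the tally shows no tendency of the family. The most counts of the 23 were those of pals-31, 64 untreated and 34 heat-shocked, and pals-33, 61 and 32. Counts of pals-2 and pals-3, both neighbours of pals-4 and chosen after their values were seen, came mostly from heat-shocked animals. Of the 46 counts of pals-2, 43 were in heat-shocked libraries, 10 of which had a count, and 3 in untreated libraries, 2 of which had one. For pals-3 there were 70 counts over all 12 heat-shocked libraries and 15 over 7 untreated ones. No library had more than 11 counts of pals-2 or 17 of pals-3. Of the counts of pals-2, 11 and 10 came from heat-shocked hsf-1FL replicates 1 and 2. In the fit without the filter, the adjusted p of the mean response was 0.00361 for pals-2, 0.0119 for pals-3 and 0.0251 for pals-4 (edgeR's quasi-likelihood test). In that fit 2310 of 27227 genes passed an adjusted p of 0.01. The gene pals-3 shares 1185 exon bases with pals-12 and 11 with pals-4.

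Of the 4 regulators tested, none passed the threshold upon heat-shock, and the fifth, pals-20, had too few counts to be tested. The repressor pals-22 was the steadiest of the cluster on chromosome III, at 2.07 to 3.90 CPM over the 24 libraries, a range of 1.88-fold, and its mean log2 fold change was -0.17 with a 95% interval from -0.48 to 0.14. Its neighbour pals-25, 92 bases away, was at 1.30 to 4.28 CPM and had a mean log2 fold change of 0.03 with an interval from -0.26 to 0.32. The mean log2 fold change of pals-16 was -0.58 with an interval from -1.20 to 0.05 and an adjusted p of 0.169, at -1.04 in N2 and 0.23 in hsf-1(sy441). For pals-17 it was -0.13 with an interval from -0.59 to 0.32. In hsf-1FL pals-17 was at 4.96, 5.23 and 3.29 CPM untreated and at 2.86, 2.68 and 0.964 CPM heat-shocked, without overlap, a log2 fold change of -1.05 at an adjusted p of 0.258. The adjacent pals-24 and pals-23, 87 bases apart and without a known role, varied more, 13.1-fold and 5.21-fold over the libraries. The ratio of their TPM values ran from 0.602 to 1.90. In hsf-1(sy441) pals-24 was at 11.9, 5.08 and 5.20 CPM untreated and at 2.51, 2.85 and 4.19 CPM heat-shocked, a log2 fold change of -1.21 with an adjusted p of 0.286.

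The gene pals-34, of unknown role, was at 1.45, 1.18 and 0.808 CPM in untreated and 1.74, 2.49 and 2.29 CPM in heat-shocked hsf-1CTD animals. These groups did not overlap, and the log2 fold change of 0.93 had an adjusted p of 0.259. Over the genotypes its log2 fold change was 0.60 ± 0.20 with an adjusted p of 0.0325. The highest fold change of the mean response belonged to pals-27, 1.25 ± 0.57 on the log2 scale with an adjusted p of 0.111, on means of 0.198 CPM untreated and 0.498 CPM heat-shocked that are near the floor. Its neighbour pals-26 had 0.89 ± 0.36 with an adjusted p of 0.0722.

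Counted by groups without overlap, 1 of the 20 was higher and 0 lower after heat-shock in N2 (8.52% and 6.46% of all genes tested), and 2 were higher and 2 lower in hsf-1FL (12.2% and 13.5%). In hsf-1CTD 3 were higher and 2 lower (15% and 15.7%), and in hsf-1(sy441) 4 were higher and 2 lower (10.7% and 9.65%).

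**Figure D3:**
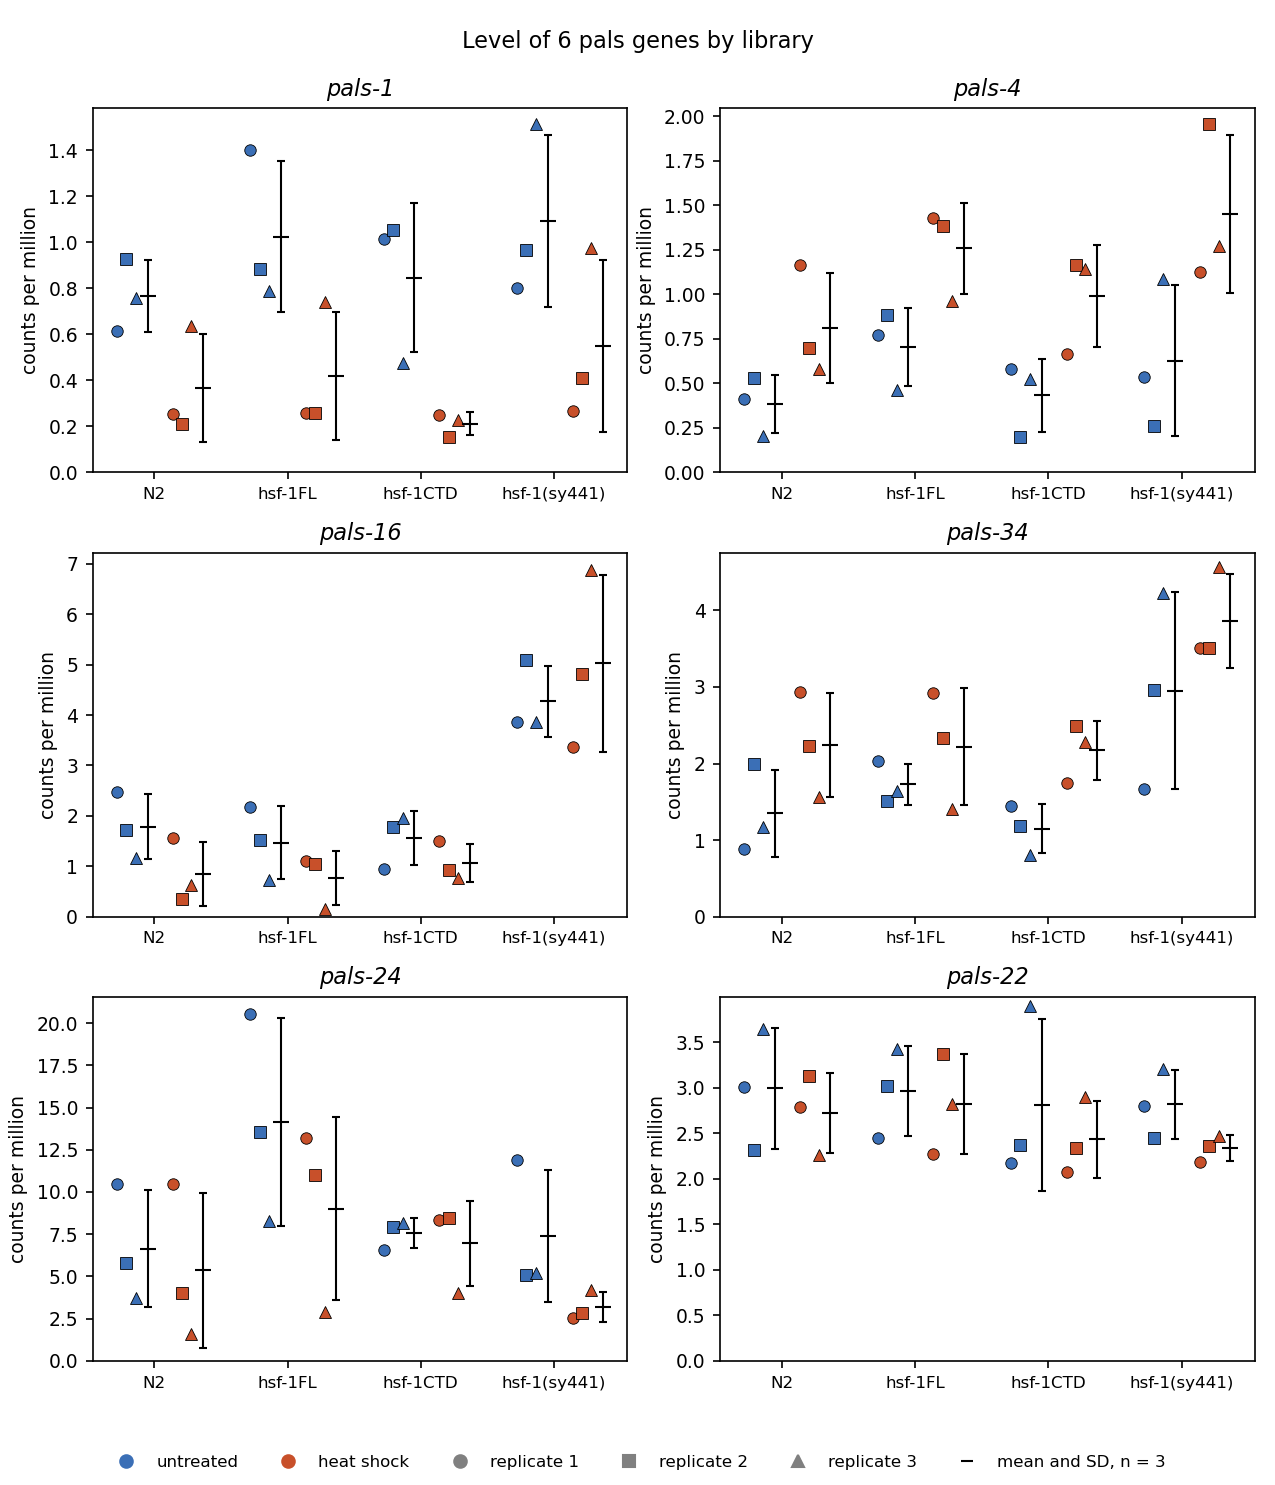
CPM (vertical axis, from 0) of pals-1, pals-4, pals-16, pals-34, pals-24 and pals-22 in each library, untreated in blue and heat-shocked in red, with a marker shape for each replicate number and the mean with SD (n = 3) in black. All 6 hsf-1(sy441) libraries lie at 3.37 to 6.89 CPM for pals-16 and the 18 others at 0.148 to 2.46 CPM.

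Between genotypes, none of the 20 passed an adjusted p of 0.01 against N2 of the same treatment, in any of the 6 comparisons. The share of all genes that did was 0.61% for untreated and 0.891% for heat-shocked hsf-1(sy441), and between 0.0131% and 0.0197% for the 2 transgenic strains. At an unadjusted p under 0.05, there were 2 of the 20 in untreated and 2 in heat-shocked hsf-1(sy441) (29.6% and 25% of all genes) and 1 in untreated hsf-1FL (7.44%). There were 0 in heat-shocked hsf-1FL (6.35%) and 0 in untreated and heat-shocked hsf-1CTD (1.2% and 3.7%). In heat-shocked hsf-1(sy441) 1 of the 20 passed at an adjusted p of 0.05 (5.94% of all genes), and the same gene was the only one that DESeq2 called at 0.01 (6.72%) in the 6 comparisons. No difference of heat response from N2 passed for any of the 20 in any of the 3 genotypes, by edgeR or DESeq2, and edgeR called 0% of all genes in each. Of the 20, 1 (cul-6 in hsf-1(sy441), 3.26% of all genes), 0 in hsf-1FL (0.596%) and 0 in hsf-1CTD (0.583%) had an unadjusted p under 0.05 there.

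The gene called by DESeq2 was pals-16 (WBGene00022337, chromosome III, 1399970 to 1401401), an activator of the intracellular pathogen response. In hsf-1(sy441) it was at 3.87, 5.08 and 3.87 CPM untreated and at 3.37, 4.81 and 6.89 CPM heat-shocked. In N2 it was at 2.46, 1.72 and 1.17 CPM untreated and at 1.57, 0.348 and 0.637 CPM heat-shocked. The transgenic strains were near N2, with 2.17, 1.51 and 0.724 CPM untreated and 1.10, 1.04 and 0.148 CPM heat-shocked in hsf-1FL. In hsf-1CTD the values were 0.9396, 1.78 and 1.95 CPM untreated and 1.49, 0.933 and 0.762 CPM heat-shocked. Each of the 6 mutant libraries was above each of the 18 others, whose highest value was 2.46 CPM. After heat-shock the log2 fold change against N2 was 2.53 ± 0.62, or 5.78-fold, with an adjusted p of 0.0267 in edgeR's quasi-likelihood test and 0.000506 in DESeq2. When single libraries were left out the log2 fold change lay between 2.17 and 3.33, with adjusted p from 0.0121 to 0.116, the highest fold change without heat-shocked N2 replicate 1. It was 3.57 without the 8 libraries numbered 1, 2.21 without those numbered 2 and 2.05 without those numbered 3. The adjusted p in edgeR's quasi-likelihood test were then 0.024, 0.365 and 0.127. With only the 6 libraries of the comparison the log2 fold change was 2.53, with an adjusted p of 0.266 in the same test. In untreated animals it was 1.26 ± 0.59, or 2.39-fold, with an adjusted p of 0.16 in edgeR's quasi-likelihood test. DESeq2 with surrogate variables gave a log2 fold change of 0.61 for untreated animals, with an adjusted p of 0.623. Without the 5 libraries high in sperm genes the log2 fold changes in edgeR were 2.22 heat-shocked and 1.14 untreated, with adjusted p of 0.109 and 0.758. The 2 hsf-1(sy441) libraries of replicate 1, where sperm genes summed to at most 48.4 CPM, were at 3.87 and 3.37 CPM of pals-16.

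The opposite order was seen for pals-25, the activator next to pals-22. Its levels in hsf-1(sy441) were 2.27, 1.93 and 1.63 CPM untreated and 2.05, 1.30 and 1.87 CPM heat-shocked, each below the lowest of the 18 other libraries, 2.32 CPM. The log2 fold change against N2 was -0.52 ± 0.28 untreated and -0.59 ± 0.28 heat-shocked, with adjusted p of 0.228 and 0.201. Of the 20 genes, 1 was above and 1 below all 18 others in hsf-1(sy441), against 1.4% and 0.865% of all genes tested, a pattern looked for after the values were seen. Body wall muscle markers (3 genes, none at 0) summed to 3818 to 11084 CPM in hsf-1(sy441) and to 1521 to 4084 CPM in the 18 others. Mean sums in untreated hsf-1(sy441) and N2 were 5667 and 7816 CPM for oocyte and 919 and 590 CPM for intestine markers. They were 689 and 11.5 CPM for sperm genes and 2159 and 2413 CPM for germline. Epidermis had 129 and 152 CPM, and neurons had 159 and 181 CPM. The part of all these markers in the levels of pals-16 and pals-25 was not tested.

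Heat-shocked hsf-1(sy441) and heat-shocked N2 did not overlap for 7 of the 20 genes, 6 higher in the mutant (pals-6, pals-16, pals-27, pals-34, skr-3 and cul-6) and 1 lower (pals-25). Of all genes tested, 11.6% were higher and 6.38% lower without overlap. Before heat-shock 3 were higher (pals-16, skr-3 and skr-4) and 1 lower (pals-25), against 15.8% and 13.8% of all genes. In untreated hsf-1FL, pals-23 was at 19.9, 14.5 and 10.3 CPM against 10.2, 6.76 and 5.78 CPM in N2, a log2 fold change of 0.97 ± 0.43 at an adjusted p of 0.575, and it was the only gene of the 20 higher without overlap there (9.43% of all genes).

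**Figure D4:**
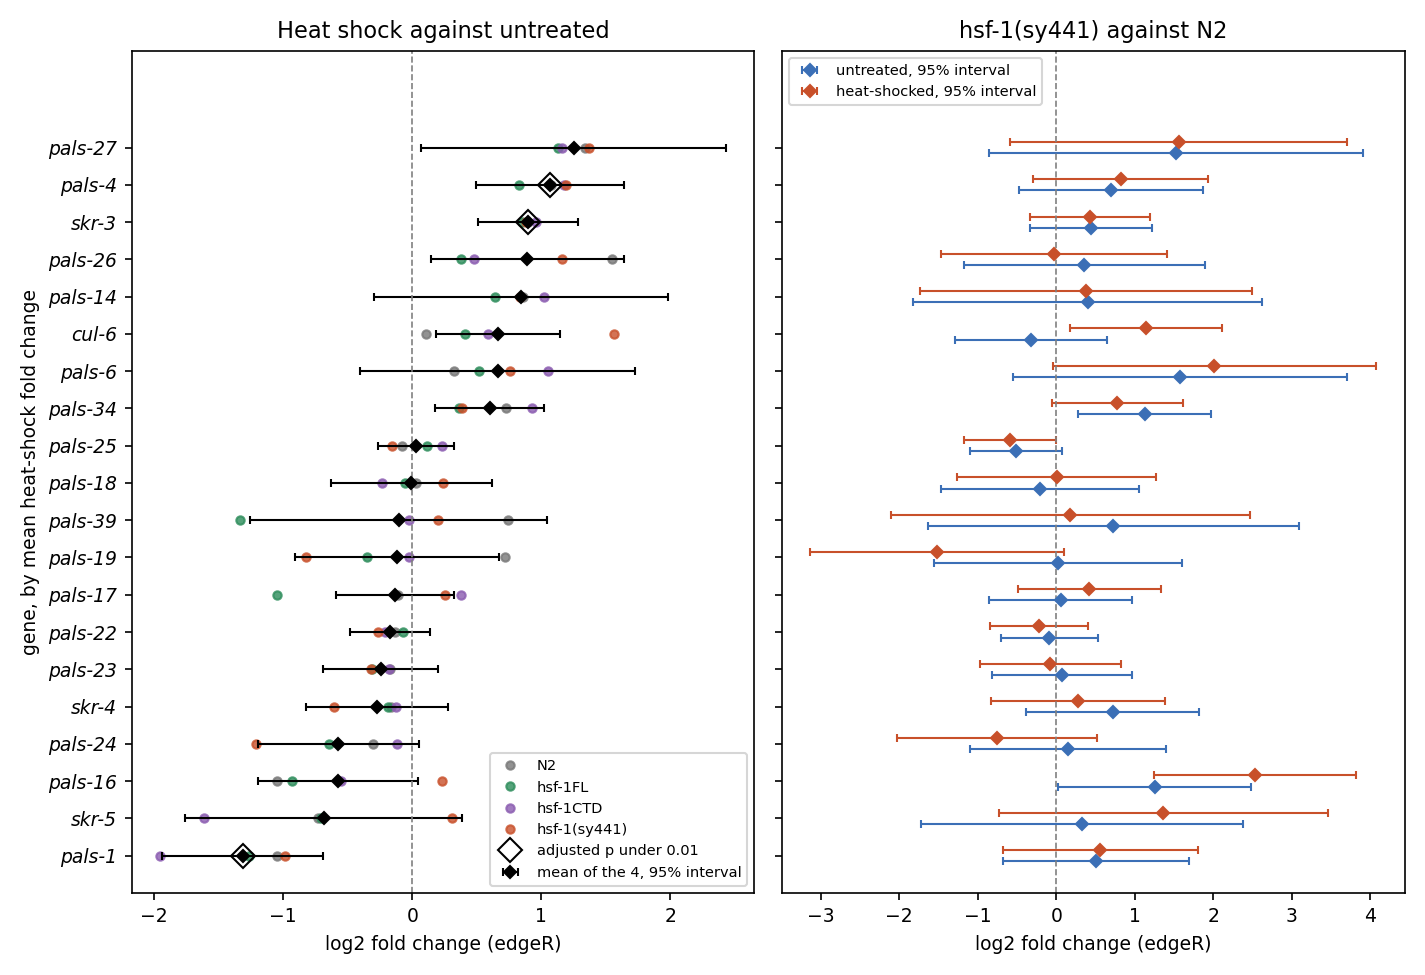
Left, log2 fold change upon heat-shock (horizontal axis) of the 20 tested genes, ordered by the mean over the 4 genotypes (black diamonds with 95% intervals), with a coloured dot for each genotype and an outer diamond where the mean response passed an adjusted p of 0.01. Right, log2 fold change of hsf-1(sy441) against N2, untreated in blue and heat-shocked in red, with 95% intervals. On the left skr-3, pals-4 and pals-1 passed, and on the right pals-16 has the largest fold change, 2.53 after heat-shock.

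Of 17 other genes of the intracellular pathogen response, outside the pals family, 10 had enough counts, among them drh-1, the RNA sensor that detects viral RNA, and zip-1, a transcription factor of the response. None of the 10 passed in any of the 14 comparisons, the mean heat response included, where 8.6% of all genes tested rose and 7.76% fell. Over the genotypes their median log2 fold change upon heat-shock was 0.09, from -0.69 to 0.69. In heat-shocked hsf-1(sy441) against N2 the median was 0.97, from -0.25 to 2.62, with sdz-6 the highest at an adjusted p of 0.0529, beside a median of 0.40 for the 20 genes and 0.02 for all genes tested. Against N2 the median of the 10 was 0.26 in untreated hsf-1(sy441). It was 0.40 untreated and 0.06 heat-shocked in hsf-1FL, and 0.22 and -0.12 in hsf-1CTD. The 17 genes summed to a mean of 164 CPM in heat-shocked hsf-1(sy441) and 162 CPM in heat-shocked N2.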

How the data were processed

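The authors trimmed reads with Trim Galore 0.6.7-1, aligned them to WBcel235 with STAR 2.7.10a and counted them on genes of annotation release 107 with featureCounts (Subread 2.0.3). The deposited values are raw counts. The strand setting and the handling of multiply mapped reads are not given in the sources used here, so reads of near-identical or overlapping genes may be missing or shared. Of the 43 symbols, 42 came from WormBase and pals-36 from the RefSeq gene with the same coordinates.

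Genes reaching 10 counts in 3 or more of the libraries were fitted in edgeR 4.0.16 (R 4.3.3, limma 3.58.1) with TMM scaling and a mean for each of the 8 conditions, all 24 libraries sharing the estimates of spread. Quasi-likelihood F-tests were adjusted by Benjamini-Hochberg over 15256 genes of the 27227 with a count, and an adjusted p under 0.01 was a call. DESeq2 1.42.0, alone or with surrogate variables (sva 3.50.0, the pair of tools that the study's methods name), was an alternative, as were other scalings, filters, a replicate block, only the 6 libraries of a comparison, an adjusted p of 0.05 and leaving out libraries. TPM used the deposited gene lengths. SE is the size of the log2 fold change over the root of its F statistic. Counts of replicates differed by 7.84 to 163 times the sampling noise (chi-square over its degrees of freedom), so none was a copy of another of its condition. Depth limits the low genes: at 3 counts or fewer a level was read as at the floor, which covers counting error only.

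Members and lists were chosen with earlier results of these data known. Genes named with values were the regulators, pals-5 and the ligase genes, members called in any comparison, up to 3 members per genotype with at least 1 CPM, groups without overlap and the largest heat-shock fold changes, and the 5 highest by TPM. Other named genes were chosen after their values were seen. The lists were other genes of the intracellular pathogen response, other Skp1-related and cullin genes, heat-shock genes, and cell type markers (oocyte, germline, intestine, epidermis, neuron, muscle and sperm). Sums of oocyte markers were 3614 to 9947 CPM per library, of germline 1623 to 2793, of epidermis 100 to 166 and of neurons 124 to 209. The lowest oocyte sums, 3614 and 3969 CPM, were those of hsf-1(sy441) replicate 3, heat-shocked and untreated.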

Additional observations from a re-analysis of the deposited data

How the results depend on the processing

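Of 522 counts of calls under other settings, 509 stayed within 1.5 times the value reported. Only the count of the mean response was above 0 in the main fit, so most of the 509 were counts of 0 that stayed at 0. In the mean response 5 genes passed at an adjusted p of 0.05 (27% of all genes), 1 of 9 tested when every library needed 10 counts, 0 without the 8 libraries numbered 1, 0 without those numbered 2 and 0 without the 5 libraries high in sperm genes, and 2 to 3 when single libraries were left out. In heat-shocked hsf-1(sy441) against N2, 1 gene (pals-16) passed at 0.05, with DESeq2 and with DESeq2 and 3 surrogate variables. With surrogate variables 1 gene (skr-3) passed upon heat-shock in hsf-1CTD, and 2 (skr-3 and cul-6) passed in the mutant. Without the libraries numbered 3, 1 gene (skr-3) passed in each of N2, hsf-1FL and hsf-1CTD. The fits without libraries had fewer samples, and the cause of these changes was not tested. Of 830 fold changes, 37 gained or lost a call or changed sign. Those that changed sign were 5, all of pals-25 in the mean response: -0.071 without the libraries numbered 1, -0.10 without the 5 high in sperm genes, and from -0.012 to 0.074 without single libraries. The settings without the libraries of 1 number and without the 5 libraries were chosen after seeing the data. With no filter, the median of all genes moved to 0.11.

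As a check of replicate numbers, deviations of same-numbered untreated and heat-shocked libraries correlated over 0.1 in 11 of 12 pairs (-0.05 to 0.81). The labels tie a number to no shared day or batch. With the replicate number as a block, shared or within each genotype, 3 genes passed in the mean response and 0 in every other comparison fitted, so the block changed no count. Sequences were not used here, so settings on promoter motifs and on members with near-identical proteins were not run.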
